A study of Mus musculus with 6 samples.

Results

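The genes described here are 41 enzymes of hepatic amino acid catabolism, taken by symbol from a fixed list, out of 55536 genes in the table, and measured by RNA-seq in mouse liver. They cover the breakdown of tyrosine, tryptophan, histidine, serine and threonine, methionine, cysteine, proline, the branched-chain amino acids and the methylated glycines, together with the aminotransferases. The rule goes by symbol alone and uses no measured value. Every mouse carried floxed Vmp1 on the C57BL/6 strain and was 8 to 10 weeks old. The labelled H-VMP1 KO group (3 libraries) received intravenous AAV8-TBG-cre, and the WT group (3 libraries) received AAV8-TBG-null, in each case for 2 weeks. The TBG promoter is active in hepatocytes, so Cre is not meant to act in the other cells of the liver. Libraries were made from total RNA of snap-frozen whole liver. The labels do not say that libraries of 1 group are from separate animals, and p-values here cover only library-to-library spread, which may be technical.

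Vmp1, the endoplasmic reticulum protein whose gene carries the floxed alleles, had 157, 136 and 137 TPM in the labelled knockout, against 70.7, 96.5 and 88.6 TPM in WT, a difference of 0.75 ± 0.13 (SE, adjusted p = 3.8e-04) log2 units. The gene-level value was therefore not lower in the libraries labelled as knockout, and it was -0.18 (adjusted p = 0.2) when libraries were rescaled by the median of gene ratios. A gene-level value does not show which exons were read, and the sources used here do not name the floxed exons. Each direction below rests on the labels, and the group is called the labelled knockout.

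Amino acid catabolism in the liver removes nitrogen from amino acids by transamination or deamination and passes the carbon skeletons to glucose, ketone bodies or oxidation. Many of its enzymes are made mainly by hepatocytes, and several are classic targets of glucagon and glucocorticoids. Methionine breakdown also supplies S-adenosylmethionine, the methyl donor, and cysteine, while tryptophan breakdown supplies a route to NAD.

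Values are TPM, the abundance of a transcript as a share of its library's own total after correction for transcript length. Fold changes are the labelled knockout minus WT on the log2(TPM + 1) scale, tested with limma, and a gene was called at an adjusted p under 0.05 over 12796 genes tested. All 41 enzymes had at least 1 TPM in every library, between 4.85 and 1862 TPM, and all were tested.

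Most of these enzymes were lower in the labelled knockout. Of the 41, 26 (63.4%) were called lower, against 10.7% of all genes tested, and 6 were called higher, against 74.5% of all genes tested. Lower by at least 1 log2 unit were 17, against 5.0% of all genes, and higher by at least that much were 3, against 37.2%. The median log2 fold change was -0.71 over the 41 enzymes and 0.77 over all genes tested. Their summed abundance was 6349, 7490 and 6268 TPM in the labelled knockout, against 11460, 15120 and 12030 TPM in WT, so no labelled knockout library reached the lowest WT library. The heat map of the 41 enzymes shows the deposited scale, where whole sets such as tyrosine and histidine breakdown fell. On that scale 3 of the 4 branched-chain genes were not called. All 4 were called lower under the rescaling described below, and differences between pathways were not tested.

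**Figure D1:**
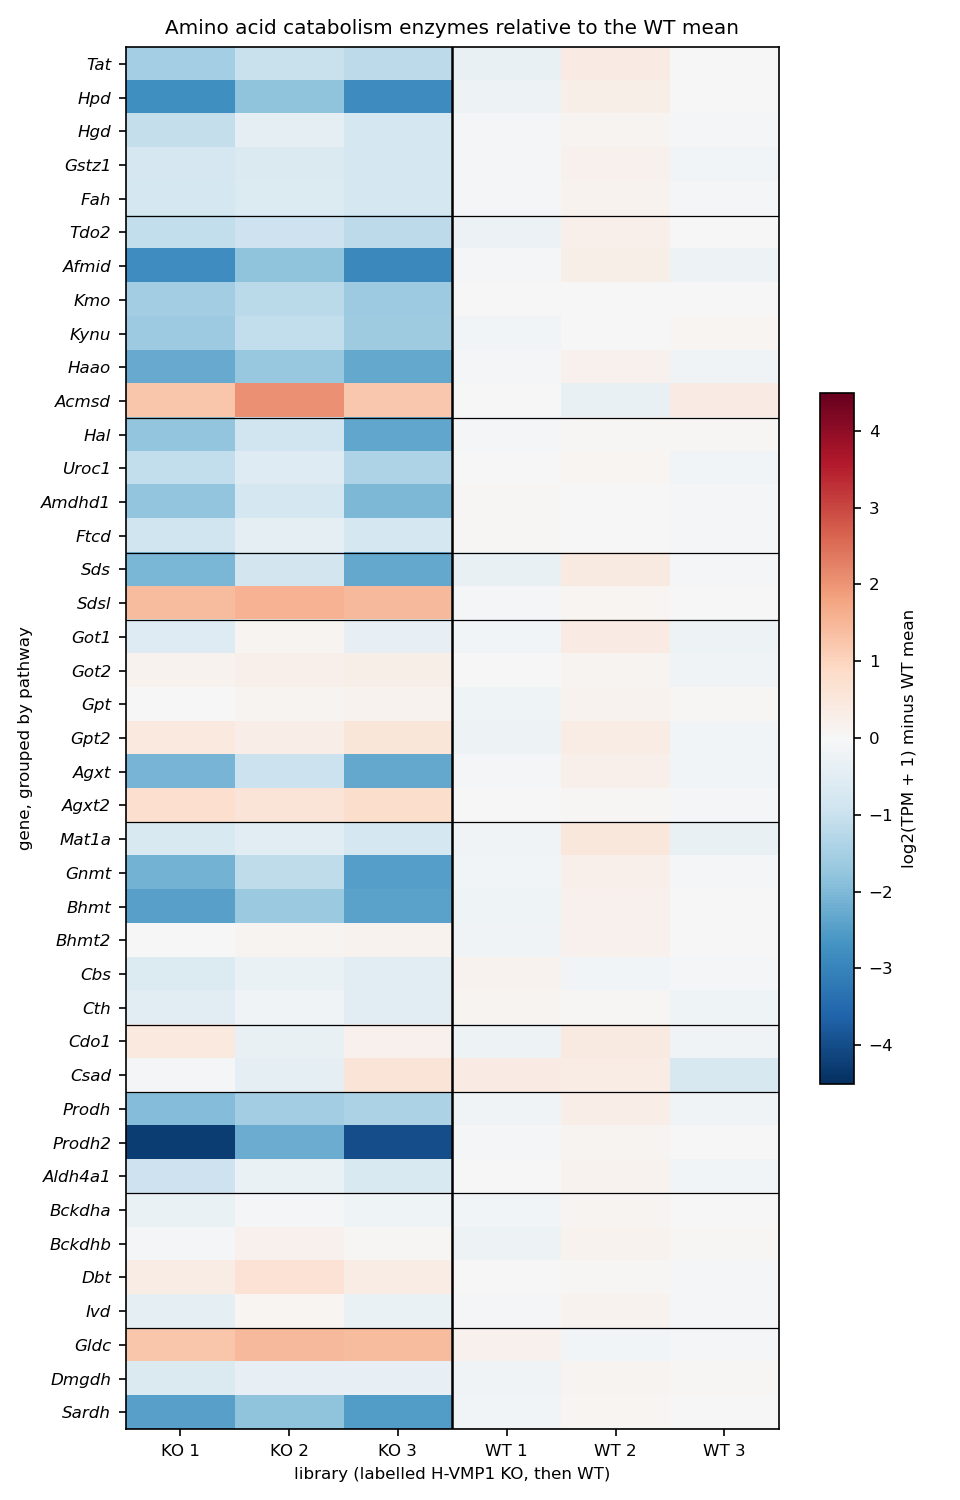
Heat map of the 41 enzymes (down) in the 6 libraries (across, labelled knockout left of WT), coloured by the log2(TPM + 1) value minus the WT mean of that gene. Prodh2, Hpd and Afmid are among the deepest decreases, and the second labelled knockout library is paler than the other two in most rows.

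Because TPM is a share, the scaling matters for the increases, the largest included, and for the weaker differences. Rescaling by the median of gene ratios shifted the fold changes by a median of -0.835 log2 units, placing the median of all genes at -0.01 and that of the 41 enzymes at -1.645. On that scale 37 enzymes were called lower, against 36.6% of all genes, and 2, Sdsl and Gldc, were called higher, against 35.1% of all genes. The 26 decreases were called on both scales. Of the 6 increases, those of Gpt2, Agxt2 and Dbt turned to decreases on the rescaled values, and that of Acmsd was no longer called. The plot of all tested genes shows how far the deposited values sit above 0 as a whole.

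**Figure D2:**
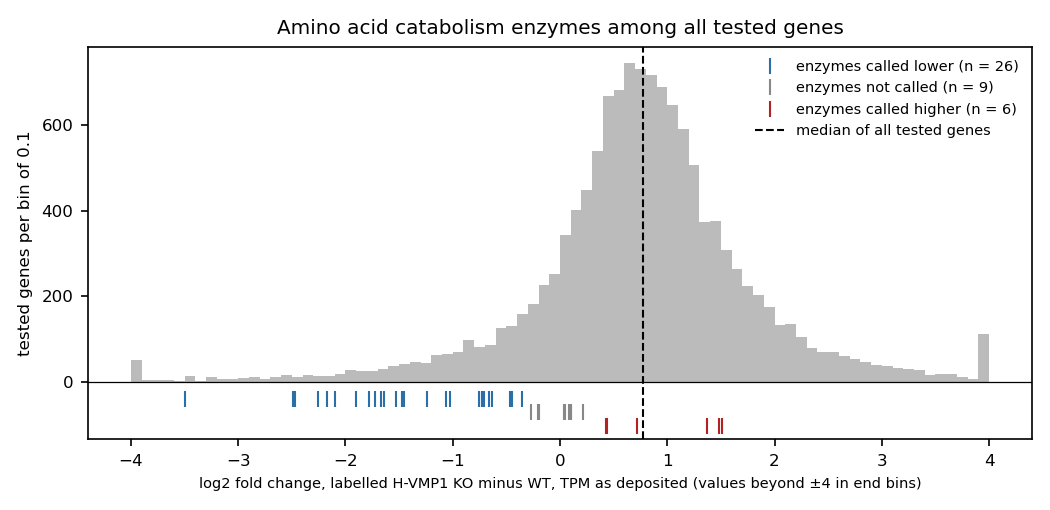
Distribution of log2 fold change (labelled knockout minus WT, horizontal axis) over the 12796 genes tested (grey, genes per bin), with the 41 enzymes as ticks under the axis, coloured by call, and values past the axis limits stacked in the end bins. The median lies at 0.77 for all genes and at -0.71 for the enzymes.

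Whole liver is a mixture, and in bulk RNA fewer hepatocytes and less RNA per hepatocyte cannot be told apart. The marker lists below were chosen with earlier results of these data known. Of 20 hepatocyte markers, 14 (70.0%) were called lower, against 10.7% of all genes tested, and 1, Hpx, was called higher, against 74.5%. Their median log2 fold change was -0.74, against -0.71 for the 41 enzymes. Their sum ranged from 58760 to 61720 TPM in the labelled knockout and from 93330 to 120200 TPM in WT. Every macrophage marker (16 of 16) was called higher, as were 74.5% of all genes tested, with a sum of 1847 to 2352 TPM in the labelled knockout and 156.6 to 266.5 TPM in WT. The same held for 10 of 10 endothelial markers, with 134.0 to 178.8 TPM in the labelled knockout and 50.8 to 57.5 TPM in WT, and for 10 of 10 stellate cell markers, with 288.5 to 339.3 TPM in the labelled knockout and 51.3 to 55.3 TPM in WT. The 4 tested of 6 cholangiocyte markers (123.9 to 173.3 TPM in the labelled knockout and 16.7 to 32.2 TPM in WT) and the 2 tested of 8 lymphocyte markers (14.09 to 17.01 TPM in the labelled knockout and 1.91 to 2.31 TPM in WT) were also called higher. Under median-of-ratios scaling, 6 of the 10 endothelial markers and all tested markers of the other non-hepatocyte lists were still called higher, against 35.1% of all genes. On that scale 19 of the 20 hepatocyte markers were called lower, against 36.6% of all genes. Their median log2 fold change was then -1.683, against -1.645 for the 41 enzymes. No marker was at 0 in all libraries. The part of these shifts in the enzyme results was not tested.

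The 5 genes of tyrosine breakdown were called lower on both scales, each without overlap between groups. Of all genes tested, 10.7% were called lower on the deposited scale and 36.6% under median-of-ratios scaling. Here and below, overlap or its absence only describes the values, since its share over all genes tested is not given. Tat, the aminotransferase that opens the pathway, had 356, 515 and 451 TPM in the labelled knockout, against 821, 1318 and 1003 TPM in WT, with a log2 fold change of -1.24 ± 0.20 (SE, adjusted p = 3.0e-04). Hpd, the dioxygenase that makes homogentisate, had 227, 433 and 214 TPM in the labelled knockout, against 1300.4, 1862 and 1508 TPM in WT, with a log2 fold change of -2.47 ± 0.28 (SE, adjusted p = 1.1e-04). Its highest labelled knockout library, the second, was still below each WT library. Hgd, which opens the homogentisate ring, fell by less, with 191, 307 and 235 TPM in the labelled knockout, against 386, 440.1 and 392 TPM in WT and a log2 fold change of -0.75 ± 0.17 (SE, adjusted p = 0.0019). Gstz1 (maleylacetoacetate isomerase) had 227, 244 and 222 TPM in the labelled knockout, against 361, 442 and 355 TPM in WT, with a log2 fold change of -0.73 ± 0.12 (SE, adjusted p = 2.5e-04). Fah, the hydrolase of the last step, had 282, 314 and 281 TPM in the labelled knockout, against 452, 543 and 463 TPM in WT, with a log2 fold change of -0.73 ± 0.12 (SE, adjusted p = 2.2e-04). The fold changes thus ran from -2.47 at Hpd to -0.73 at the closing steps, with Hpd lowest of the 5 on both scales, and differences between steps were not tested.

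Along the kynurenine route of tryptophan breakdown, 5 enzymes fell and 1, Acmsd, rose on the deposited scale. Of all genes tested, 10.7% were called lower and 74.5% higher on that scale. Tdo2, the haem dioxygenase that starts the route in liver, had 407, 463 and 391 TPM in the labelled knockout, against 729, 1033 and 893 TPM in WT, with a log2 fold change of -1.06 ± 0.15 (SE, adjusted p = 8.4e-05). Afmid, the formamidase that releases kynurenine, had 5.31, 11.4 and 4.86 TPM in the labelled knockout, against 40.9, 51.1 and 36.2 TPM in WT, with a log2 fold change of -2.49 ± 0.31 (SE, adjusted p = 2.8e-04). The highest labelled knockout values of both genes, in the second library, stayed below the lowest WT value. Kmo (kynurenine hydroxylase) and Kynu (kynureninase) fell by nearly the same amount, at -1.47 and -1.46 log2 units, with adjusted p = 2.6e-06 for Kmo and 1.2e-05 for Kynu. Kmo had 40.2, 51.5 and 38.4 TPM in the labelled knockout, against 122, 118 and 123 TPM in WT. Kynu averaged 25.9 ± 5.80 TPM in the labelled knockout and 71.9 ± 5.69 TPM in WT (SD, n = 3 each). These genes are also expressed by macrophages, whose markers were higher in the same libraries.

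Haao and Acmsd act one after the other at the branch to NAD. Haao, the dioxygenase that forms the NAD precursor's semialdehyde, had 101, 148 and 97.7 TPM in the labelled knockout, against 478, 564 and 438 TPM in WT, with a log2 fold change of -2.10 ± 0.17 (SE, adjusted p = 3.5e-06). Acmsd, the decarboxylase that draws this semialdehyde away from NAD synthesis, had 25.5, 45.5 and 24.8 TPM in the labelled knockout, against 9.94, 7.82 and 13.3 TPM in WT, with a log2 fold change of 1.51 ± 0.28 (SE, adjusted p = 0.0018). Acmsd was higher in each labelled knockout library than in any WT library, although under median-of-ratios scaling its fold change was 0.62 with adjusted p = 0.12. The ratio of Haao to Acmsd within a library is not changed by a single scaling factor per library, and was 3.98, 3.26 and 3.94 in the labelled knockout, against 48.1, 72.1 and 33.1 in WT. This ratio was chosen after the values were seen and carries no test.

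**Figure D3:**
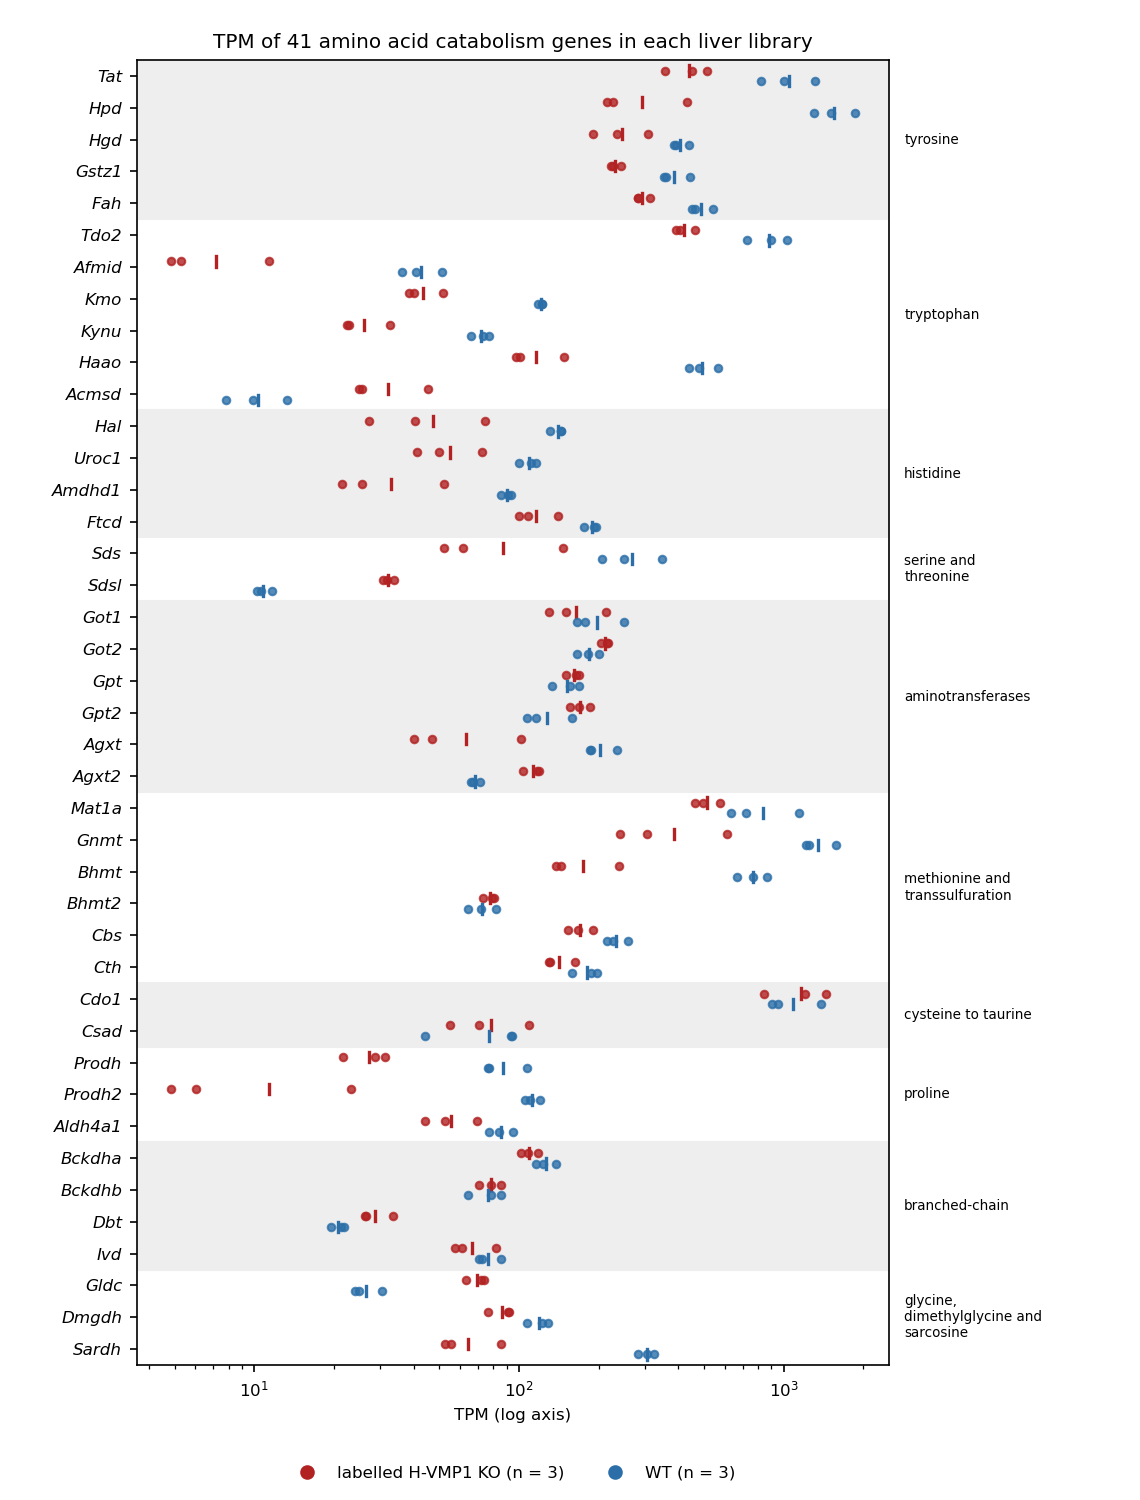
TPM of the 41 enzymes in each library on a log axis, labelled knockout (red) above WT (blue) for each gene, with a point for each library and a vertical tick at the group mean. The groups separate for Hpd, Haao, Prodh2 and Sardh, which are lower, and for Acmsd, Sdsl and Gldc, which are higher in the labelled knockout on the deposited scale.

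All 4 enzymes that turn histidine into glutamate were called lower, against 10.7% of all genes tested. They were also called lower under median-of-ratios scaling, against 36.6% of all genes. Hal, the histidase that removes ammonia in the first step, had 40.4, 74.4 and 27.2 TPM in the labelled knockout, against 132, 144 and 144 TPM in WT, with a log2 fold change of -1.66 ± 0.35 (SE, adjusted p = 0.0046). Uroc1 (urocanase) had 50.1, 72.9 and 41.3 TPM in the labelled knockout, against 111, 116 and 100.5 TPM in WT, with a log2 fold change of -1.02 ± 0.19 (SE, adjusted p = 0.001). Amdhd1, the imidazolonepropionase of the next step, had 25.5, 52.0 and 21.4 TPM in the labelled knockout, against 93.7, 90.7 and 85.9 TPM in WT, with a log2 fold change of -1.53 ± 0.32 (SE, adjusted p = 0.0041). In Hal and Amdhd1 the first and the third labelled knockout library lay well below the second, and the groups did not overlap. Ftcd, which hands the formimino group to folate, had 99.96, 140.0 and 108 TPM in the labelled knockout, against 196, 193 and 176 TPM in WT, with a log2 fold change of -0.71 ± 0.13 (SE, adjusted p = 7.0e-04), the smallest of the 4. Hal (chr10:93488768-93519304, plus strand) and Amdhd1 (chr10:93523338-93540033, minus strand) lie tail to tail on mouse assembly GRCm38, 4033 bases apart, with no protein-coding gene between them.

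Serine dehydratase and its paralogue went opposite ways. Sds, which deaminates serine and threonine to feed gluconeogenesis, had 61.8, 147 and 52.3 TPM in the labelled knockout, against 206, 347 and 249 TPM in WT, with a log2 fold change of -1.73 ± 0.44 (SE, adjusted p = 0.012). Without the first labelled knockout library that call was lost (-1.56, adjusted p = 0.055). Sdsl, the serine dehydratase-like gene, had 30.7, 33.8 and 31.9 TPM in the labelled knockout, against 10.3, 11.7 and 10.6 TPM in WT, with a log2 fold change of 1.49 ± 0.10 (SE, adjusted p = 6.9e-07), and it also rose under median-of-ratios scaling (0.59). Its 3 labelled knockout values lay close together and well above WT. The genes are neighbours, Sdsl at chr5:120458186-120472810, minus strand, and Sds at chr5:120476526-120483932, plus strand, with their starts facing apart and 3715 bases between them. The ratio of Sds to Sdsl was 2.01, 4.34 and 1.64 in the labelled knockout, against 20.1, 29.8 and 23.5 in WT.

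The aminotransferases were split. Of the 6, Agxt was called lower, Gpt2 and Agxt2 were called higher and Got1, Got2 and Gpt were not called. Over all genes tested, 10.7% were called lower and 74.5% higher. Got1, the cytosolic aspartate aminotransferase, had 130.0, 213 and 151 TPM in the labelled knockout, against 178, 249 and 166 TPM in WT, with a log2 fold change of -0.27 ± 0.21 (SE, adjusted p = 0.26), and the groups overlapped. Got2, its mitochondrial counterpart, had 204, 215 and 218 TPM in the labelled knockout, against 183, 201 and 166 TPM in WT (adjusted p = 0.082). The Got2 groups did not overlap, by a narrow margin, and without the second WT library Got2 was called higher (0.29, adjusted p = 0.022). Gpt, the cytosolic alanine aminotransferase, had 150.4, 165 and 169 TPM in the labelled knockout, against 133, 168 and 156 TPM in WT (adjusted p = 0.5). Under median-of-ratios scaling all 6 were called lower, against 36.6% of all genes. Got1 was then at -1.21, Got2 at -0.72 and Gpt at -0.85 log2 units. Gpt2, the mitochondrial alanine aminotransferase, had 169, 156 and 185 TPM in the labelled knockout, against 108, 158 and 116 TPM in WT, with a log2 fold change of 0.43 ± 0.15 (SE, adjusted p = 0.021) that turned to -0.51 under that scaling. The groups overlapped in 1 library each, and the call was lost without the third labelled knockout library (adjusted p = 0.067), without the first WT library (0.072) and without the third WT library (0.078).

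Agxt and Agxt2 both use alanine and glyoxylate, Agxt as the main glyoxylate-clearing enzyme of the liver and Agxt2 as a mitochondrial enzyme of wider range. Agxt had 47.1, 102 and 40.3 TPM in the labelled knockout, against 188, 235 and 186 TPM in WT, with a log2 fold change of -1.79 ± 0.36 (SE, adjusted p = 0.0036). Agxt2 had 117, 103 and 119 TPM in the labelled knockout, against 66.9, 71.6 and 66.2 TPM in WT, with a log2 fold change of 0.72 ± 0.10 (SE, adjusted p = 7.3e-05) that was -0.22 under median-of-ratios scaling. Neither pair of groups overlapped. Within a library, where a single scaling factor cancels, the ratio of Agxt to Agxt2 was 0.403, 0.983 and 0.338 in the labelled knockout, against 2.81, 3.28 and 2.81 in WT. Promoter windows of 300 bases (250 before to 50 after the start) were taken from RefSeq on GRCm38.p6 for 33 of the 41 enzymes, 37 windows in all, the others being Kynu, Sds, Sdsl, Gpt, Mat1a, Cth, Cdo1 and Dbt. They were searched on both strands for 4 fixed letter patterns: TATAAA for the basal promoter box, TTGCNNAA for C/EBP factors, GTTAATNAT for HNF1 and CAAAGTCCA for HNF4. The shares of windows with a match were 18.9% for the enzymes and 13.6% for all 32851 windows for TATAAA, 10.8% and 10.8% for TTGCNNAA, 5.41% and 0.801% for GTTAATNAT and 5.41% and 0.475% for CAAAGTCCA. The HNF4 pattern was found in 2 windows, both of Agxt2 and overlapping. The HNF1 pattern was also found in only 2 windows, those of Prodh2, which was called lower, and Got2, which was not called. Agxt2 is shown as an aminotransferase called higher on the deposited scale, where Agxt was called lower. Under median-of-ratios scaling both were called lower. The window is chr15:10358283-10358582, plus strand, 5′ to 3′. Its TATAAA match (read on the minus strand) and its CAAAGTCCA match are in capitals and do not overlap.
Agxt2: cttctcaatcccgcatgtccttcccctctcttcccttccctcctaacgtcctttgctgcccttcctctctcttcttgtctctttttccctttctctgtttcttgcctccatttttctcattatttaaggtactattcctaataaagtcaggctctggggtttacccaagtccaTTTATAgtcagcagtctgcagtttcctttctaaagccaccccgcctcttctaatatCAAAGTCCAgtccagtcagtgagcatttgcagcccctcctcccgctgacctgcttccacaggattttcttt
A match is a description of letters and not of a bound site.

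Of the methionine and transsulfuration enzymes, 5 of 6 were called lower on the deposited scale, against 10.7% of all genes tested. All 6 were called lower under median-of-ratios scaling, against 36.6% of all genes. The methyl-group enzymes Gnmt and Bhmt had the lowest fold changes on both scales. Mat1a, the adult liver enzyme that makes S-adenosylmethionine, had 497, 576 and 463 TPM in the labelled knockout, against 719.5, 1148 and 635 TPM in WT, with a log2 fold change of -0.66 ± 0.22 (SE, adjusted p = 0.018). Without the third labelled knockout library its fold change was -0.59 and no longer called (adjusted p = 0.054), and without the second WT library it was -0.41 (adjusted p = 0.019). Gnmt, which spends S-adenosylmethionine on glycine, had 306, 612 and 241 TPM in the labelled knockout, against 1221, 1571 and 1244 TPM in WT, with a log2 fold change of -1.91 ± 0.34 (SE, adjusted p = 0.0018). Bhmt, which remethylates homocysteine with betaine, had 138, 239 and 145 TPM in the labelled knockout, against 667, 868 and 767 TPM in WT, with a log2 fold change of -2.17 ± 0.21 (SE, adjusted p = 2.1e-05). Both fell without overlap, and the second labelled knockout library held the highest value of its group. Bhmt2, a close paralogue that takes its methyl group from S-methylmethionine, had 73.5, 79.3 and 80.3 TPM in the labelled knockout, against 64.2, 81.9 and 71.9 TPM in WT, with a log2 fold change of 0.10 ± 0.11 (SE, adjusted p = 0.4), and was -0.83 and called lower under median-of-ratios scaling. The ratio of Bhmt to Bhmt2 was 1.88, 3.02 and 1.80 in the labelled knockout, against 10.4, 10.6 and 10.7 in WT, with WT libraries almost identical. The transsulfuration enzymes that lead to cysteine had smaller fold changes. Cbs (cystathionine beta-synthase) had 153, 191 and 168 TPM in the labelled knockout, against 259, 215 and 227 TPM in WT, with a log2 fold change of -0.45 ± 0.12 (SE, adjusted p = 0.0057). Cth (cystathionine gamma-lyase) had 130.4, 163 and 131 TPM in the labelled knockout, against 198, 188 and 159 TPM in WT, with a log2 fold change of -0.36 ± 0.13 (SE, adjusted p = 0.026). The Cth groups overlapped, and its call was lost without the first (adjusted p = 0.095) or the third (0.091) labelled knockout library and without the first (0.08) or the second (0.066) WT library. With no filter on low values its adjusted p was 0.065.

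Sarcosine and dimethylglycine, the products of the Gnmt and Bhmt reactions, are oxidised by Sardh and Dmgdh in mitochondria. Sardh had 55.3, 85.4 and 52.5 TPM in the labelled knockout, against 282, 325 and 305 TPM in WT, with a log2 fold change of -2.25 ± 0.18 (SE, adjusted p = 3.8e-06). Dmgdh had 76.3, 91.2 and 91.7 TPM in the labelled knockout, against 107, 129 and 123 TPM in WT, with a log2 fold change of -0.47 ± 0.12 (SE, adjusted p = 0.0037). Both were lower in each labelled knockout library than in any WT library, Sardh with the larger fold change. Gldc, the decarboxylase of the glycine cleavage system, had 63.3, 73.7 and 71.8 TPM in the labelled knockout, against 30.4, 24.0 and 24.9 TPM in WT, with a log2 fold change of 1.37 ± 0.12 (SE, adjusted p = 3.3e-06), and it also rose under median-of-ratios scaling (0.45, adjusted p = 0.015). Bhmt (chr13:93616675-93637961, minus strand), Bhmt2 (chr13:93655720-93674302, minus strand) and Dmgdh (chr13:93674433-93752833, plus strand) form a cluster in GENCODE on GRCm38. Bhmt2 and Dmgdh start 130 bases apart on opposite strands, so their RefSeq windows share 233 bases, which are in capitals in the Dmgdh window (chr13:93674186-93674485, plus strand). The Bhmt window (chr13:93637709-93638008, minus strand) lies beyond the other end of Bhmt2. The sequences are shown to set the gene that fell most in this cluster, Bhmt, beside the divergent start of the other two, each 5′ to 3′.
Dmgdh: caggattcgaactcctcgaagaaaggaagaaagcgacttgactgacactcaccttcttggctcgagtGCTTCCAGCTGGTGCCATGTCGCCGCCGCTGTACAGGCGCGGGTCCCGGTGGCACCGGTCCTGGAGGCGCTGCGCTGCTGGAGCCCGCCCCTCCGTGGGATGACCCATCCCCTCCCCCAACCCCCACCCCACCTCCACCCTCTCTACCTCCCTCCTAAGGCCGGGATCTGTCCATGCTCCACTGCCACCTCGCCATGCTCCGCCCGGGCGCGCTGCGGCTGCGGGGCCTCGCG
Bhmt: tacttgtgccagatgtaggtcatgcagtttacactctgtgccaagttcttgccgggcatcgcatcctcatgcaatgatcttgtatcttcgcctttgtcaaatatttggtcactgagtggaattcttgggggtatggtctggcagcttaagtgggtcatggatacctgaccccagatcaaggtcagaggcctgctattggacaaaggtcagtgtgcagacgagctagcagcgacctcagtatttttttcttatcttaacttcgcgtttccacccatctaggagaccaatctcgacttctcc
The Bhmt window held 8 CpG and none of the 4 letter patterns, while the Dmgdh and Bhmt2 windows held 25 and 26 CpG, the median being 7 over all windows and 8 over those of the enzymes. Of the genes that share this start region, Dmgdh was called lower on the deposited scale and Bhmt2 was not, and the difference between them was not tested.

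The 2 enzymes that lead from cysteine to taurine were not called. Cdo1, the cysteine dioxygenase, had 1448, 844 and 1202 TPM in the labelled knockout, against 903, 1389 and 952 TPM in WT, with a log2 fold change of 0.10 ± 0.23 (SE, adjusted p = 0.7). Csad, which decarboxylates cysteine sulfinate, had 70.5, 54.8 and 109.7 TPM in the labelled knockout, against 94.6, 93.4 and 44.2 TPM in WT, with a log2 fold change of 0.04 ± 0.40 (SE, adjusted p = 0.93). The libraries within each group spread widely and the groups overlapped for both. Under median-of-ratios scaling Cdo1 was called lower (-0.84), and Csad was at -0.89 without a call.

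Proline and hydroxyproline breakdown held the deepest decrease of the 41. Prodh2, the hydroxyproline dehydrogenase, had 4.85, 23.2 and 6.02 TPM in the labelled knockout, against 105, 120.2 and 109.8 TPM in WT, with a log2 fold change of -3.50 ± 0.59 (SE, adjusted p = 0.003). The second labelled knockout library stood well above the other two of its group and far below WT. Without that library the fold change was -4.14 (adjusted p = 4.3e-09), and without the first it was -3.11 (adjusted p = 0.013). Prodh, the proline dehydrogenase, had 21.7, 28.6 and 31.3 TPM in the labelled knockout, against 76.6, 107 and 77.2 TPM in WT, with a log2 fold change of -1.64 ± 0.17 (SE, adjusted p = 2.1e-05). Aldh4a1, the dehydrogenase of the step common to both routes, averaged 55.5 ± 12.9 TPM in the labelled knockout and 85.5 ± 9.01 TPM in WT (SD, n = 3 each), with a log2 fold change of -0.64 ± 0.16 (SE, adjusted p = 0.0049). The ratio of Prodh2 to Prodh was 0.223, 0.810 and 0.192 in the labelled knockout, against 1.38, 1.12 and 1.42 in WT. The Prodh2 window (chr7:30493408-30493707, plus strand) is shown because this gene fell most. Its TTGCNNAA and GTTAATNAT matches, both on the minus strand and not overlapping, are in capitals.
Prodh2: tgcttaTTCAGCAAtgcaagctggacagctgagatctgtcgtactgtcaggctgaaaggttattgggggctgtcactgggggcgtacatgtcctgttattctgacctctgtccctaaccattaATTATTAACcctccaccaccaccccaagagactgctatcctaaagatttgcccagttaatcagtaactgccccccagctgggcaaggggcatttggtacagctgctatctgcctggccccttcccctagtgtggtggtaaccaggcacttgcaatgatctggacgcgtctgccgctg

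Of the 4 branched-chain genes, 3 were not called and 1, Dbt, was called higher on the deposited scale, as were 74.5% of all genes tested. Bckdha and Bckdhb, subunits of the decarboxylase of the branched-chain ketoacid dehydrogenase, were not called. Bckdha had 102, 118 and 109 TPM in the labelled knockout, against 116, 139 and 124 TPM in WT, with a log2 fold change of -0.20 ± 0.11 (SE, adjusted p = 0.1). Bckdhb averaged 78.2 ± 7.50 TPM in the labelled knockout and 76.1 ± 10.9 TPM in WT (SD, n = 3 each, adjusted p = 0.76). The groups overlapped for both. Ivd, the isovaleryl-CoA dehydrogenase of leucine breakdown, averaged 66.8 ± 13.1 TPM in the labelled knockout and 76.4 ± 8.00 TPM in WT (SD, n = 3 each, adjusted p = 0.21). Dbt, the transacylase core of the same complex, had 26.2, 33.4 and 26.5 TPM in the labelled knockout, against 21.2, 21.8 and 19.5 TPM in WT, with a log2 fold change of 0.44 ± 0.12 (SE, adjusted p = 0.0057) that turned to -0.47 and a call of lower under median-of-ratios scaling. On that scale the other branched-chain genes were also called lower, as were 36.6% of all genes. Ivd was then at -1.13, Bckdha at -1.14 and Bckdhb at -0.89 log2 units. The plot of fold changes by pathway shows these genes around 0 on the deposited scale, right of the histidine and proline enzymes.

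**Figure D4:**
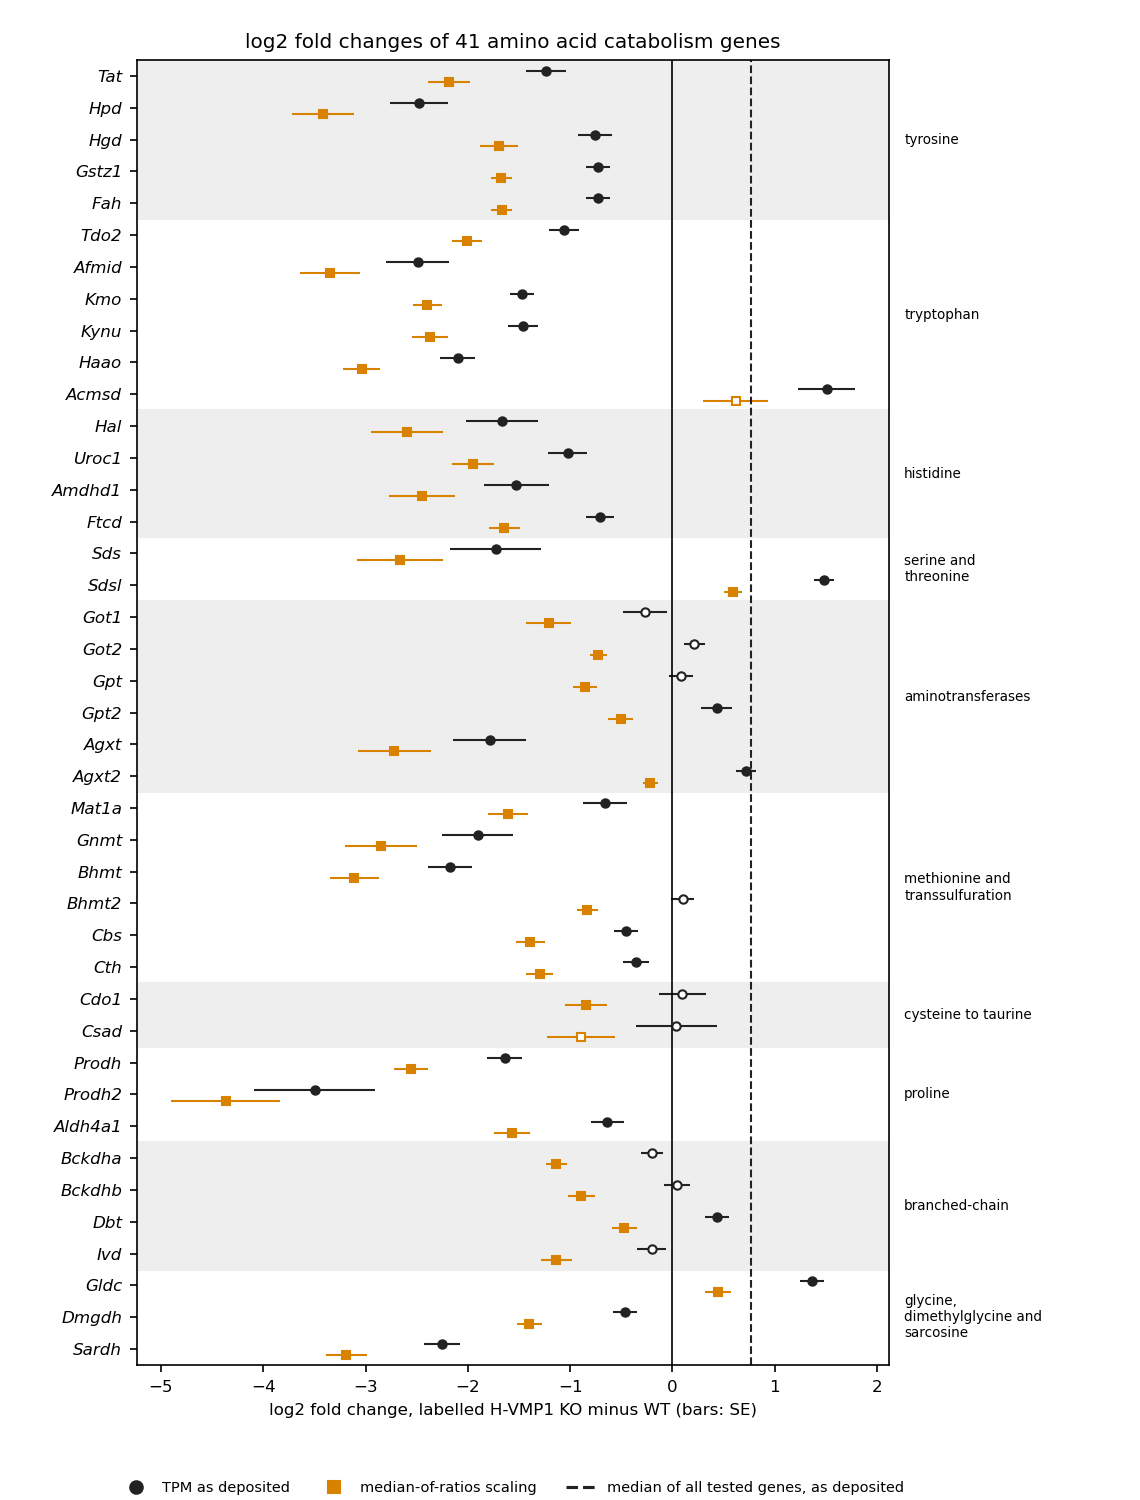
Log2 fold change (labelled knockout minus WT) of the 41 enzymes, grouped by pathway, on the deposited scale (black circles) and under median-of-ratios scaling (orange squares), with standard errors as bars, open symbols for no call and a dashed line at the deposited median of all genes. Prodh2 lies farthest to the left at -3.50 and Acmsd, Sdsl and Gldc farthest to the right, between 1.37 and 1.51, on the deposited scale, and the squares lie to the left of the circles throughout, which puts Gpt2, Agxt2 and Dbt below 0.

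Pairs of isoenzymes or sister enzymes were compared as ratios within each library, which a single scaling factor per library cannot change. In each pair the enzyme with the lower fold change was placed first, so the negative sign of each difference follows from that order. Over the 7 pairs, the ratio of Sds to Sdsl differed most, with a log2 difference of -3.31, followed by Agxt to Agxt2 (-2.53), Bhmt to Bhmt2 (-2.28), Prodh2 to Prodh (-1.995) and Sardh to Dmgdh (-1.80). Got1 to Got2 was 0.637, 0.990 and 0.693 in the labelled knockout, against 0.971, 1.24 and 1.01 in WT, and overlapped. Gpt to Gpt2 was 0.891, 1.055 and 0.912 in the labelled knockout, against 1.24, 1.063 and 1.35 in WT, a difference of -0.35 without overlap. The two-sided exact permutation p was 0.1 for each pair other than Got1 to Got2 (0.2), and 0.1 is the smallest that 3 against 3 libraries allow. Adjusted over the 7 pairs these became 0.117 and 0.2, so none passed 0.05.

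**Figure D5:**
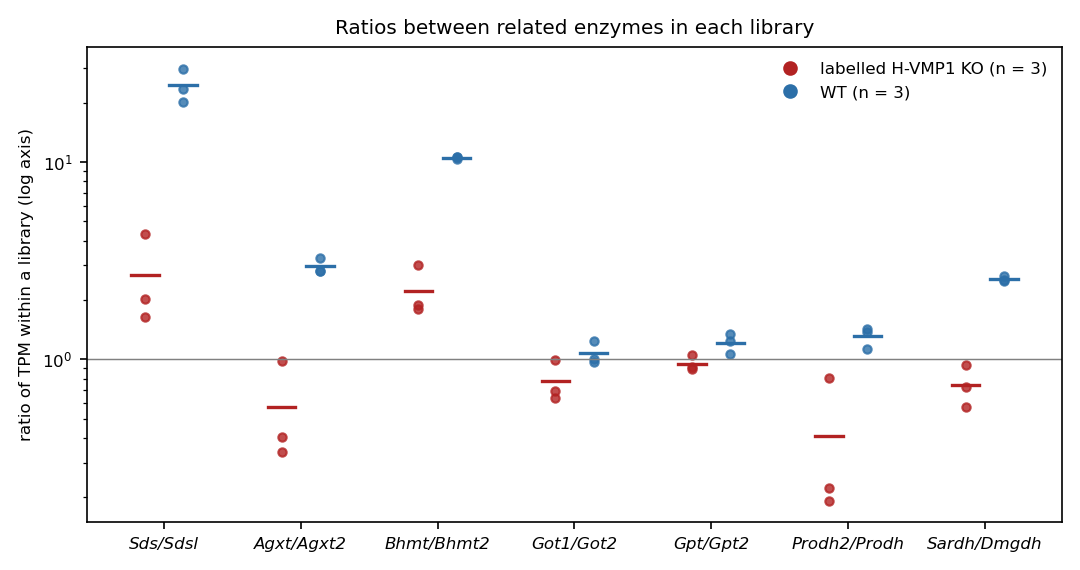
Ratio of the TPM of paired enzymes within each library on a log axis, labelled knockout (red) left of WT (blue). Points are libraries, bars are group means, and the groups overlap for Got1 to Got2.

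The labelled knockout libraries were not alike for the enzymes that fell. Among the 26 called lower, the second library was the highest of its group in 24, the third in 2 and the first in 0, whereas over all 1369 genes called lower the second was highest in 803 (58.7%). The median log2 difference of the 26 from the WT mean was -1.60 in the first library, -0.91 in the second and -1.52 in the third. Among the hepatocyte markers the second library was highest of its group in 12 of 20. Without the second labelled knockout library, Hal was at -2.05, Amdhd1 at -1.90, Sds at -2.18, Agxt at -2.19 and Gnmt at -2.29, and Got1 (-0.47, adjusted p = 0.034) and Ivd (-0.36, adjusted p = 0.017) were called lower as well. In WT the second library was the highest for 31 of the 41 enzymes, for 20 of 20 hepatocyte markers and for 60.2% of all genes tested.

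Other genes of the same pathways, listed by function, were called lower more often than higher. This list was chosen with earlier results of these data known. Of 70 listed symbols, some of them alternative names of the same gene, 66 were in the table and 60 were tested. Among these, 33 (55.0%) were called lower, against 10.7% of all genes tested, and 14 (23.3%) higher, against 74.5%, with a median log2 fold change of -0.42, against 0.77 over all genes. Under median-of-ratios scaling 51 (85.0%) were called lower, against 36.6% of all genes, and 6 higher, against 35.1%. Hao1, the peroxisomal oxidase that makes glyoxylate from glycolate, averaged 10.4 ± 7.26 TPM in the labelled knockout and 134 ± 2.39 TPM in WT (SD, n = 3 each), with a log2 fold change of -3.74 ± 0.42 (SE, adjusted p = 3.7e-04). Hykk (hydroxylysine kinase) and Oat (ornithine aminotransferase) were at -3.09 and -2.55 log2 units. Among the increases were Gatm, which opens creatine synthesis, at 1.82, and Sqor, which oxidises sulfide, at 1.36. Mat2a, another S-adenosylmethionine synthetase gene, averaged 94.2 ± 10.2 TPM in the labelled knockout and 36.4 ± 4.22 TPM in WT (SD, n = 3 each). Its log2 fold change was 1.35 ± 0.12 (SE, adjusted p = 4.5e-06), and which liver cells its RNA came from was not tested. The ratio of Mat2a to Mat1a was 0.166, 0.173 and 0.217 in the labelled knockout, against 0.0490, 0.0358 and 0.0519 in WT, without overlap. Hao1, Hykk, Oat, Gatm, Sqor and Mat2a were named as the largest changes in each direction.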

How the data were processed

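The authors deposited 1 table of TPM values for 6 libraries, 3 in each group, with 0 columns unmapped. Tools in the submitters' processing notes are the aligner STAR 2.6.1c, RSEM and edgeR, and the build is mm10, with no role or order stated. Strand setting and read length: not given in the sources used here. Each deposited column sums to about 1000000 TPM, so read depth is unknown and no counting interval was given. Of 55536 identifiers, 55450 matched GENCODE M21 on GRCm38 (mm10). Reads shared by paralogues such as Bhmt and Bhmt2 may be split between them, as may those of overlapping genes, and 21 of the 41 enzymes overlap another annotated gene, 10 of them a protein-coding one (Hpd, Gstz1, Afmid, Kmo, Sds, Agxt2, Csad, Prodh, Aldh4a1 and Bckdha), so values of these 10 are less certain.

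Genes reaching 1 TPM in 3 or more libraries entered the fit on log2(TPM + 1), made with limma 3.58.1 in R 4.3.3 (intensity trend, robust variances, no replicate block, Benjamini-Hochberg over 12796 genes, threshold 0.05). A fold change on this scale understates changes of low genes. The fitting script was tested on simulated data without a shift of most genes, so that test says nothing about the choice of scaling. Alternatives were another pseudocount (0.1 TPM), no filter, median-of-ratios, quantile and Mup-free scaling, plain variances, a replicate block and each library left out. Median-of-ratios scaling divides each library by 1 factor, the median over genes of the ratio to the mean profile. Enzymes, related genes, carriers and markers are fixed lists, all chosen with earlier results of these data known. All 41 enzymes are named, with the 3 largest changes in each direction among related genes and carriers. Ratios were compared with exact permutation tests (scipy 1.17.1, Python 3.11.15), and figures were drawn with matplotlib 3.10.9.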

Additional observations from a re-analysis of the deposited data

How the results depend on the processing

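The 26 decreases were called under both scalings. Enzymes called higher numbered 6 in the deposited values, 2 under median-of-ratios scaling, 2 under quantile normalization, 2 where both scalings had to call them and 3 where at least 1 log2 unit was asked, a limit that left 17 of the 26 called lower. The last of these, and the joint call, were chosen after seeing the data. Signs turned under median-of-ratios scaling for Got2 (-0.72), Gpt (-0.85), Gpt2 (-0.51), Agxt2 (-0.22), Bhmt2 (-0.83), Cdo1 (-0.84), Csad (-0.89), Bckdhb (-0.89) and Dbt (-0.47), under quantile normalization for Got2 (-0.13), Gpt (-0.35), Gpt2 (-0.001), Bhmt2 (-0.53), Cdo1 (-0.19), Csad (-0.57), Bckdhb (-0.57) and Dbt (-0.31), and with Mup genes taken out of the total for Got2 (-0.045), Gpt (-0.18), Bhmt2 (-0.16), Cdo1 (-0.16), Csad (-0.22) and Bckdhb (-0.22). With Mup genes out, 4 enzymes were called higher and 29 lower, Gpt2 (0.17, adjusted p = 0.24) and Dbt (0.19, adjusted p = 0.13) having lost their calls and Got1, Bckdha and Ivd having become called lower. Over the 6 refits that left out a library, Gpt ranged from -0.009 to 0.157, Cdo1 from -0.075 to 0.314, Csad from -0.319 to 0.263 and Bckdhb from -0.073 to 0.131, none of them called, the cause was not tested, and calls over the 41 enzymes ranged from 5 to 7 higher and from 24 to 28 lower. Libraries of the same number shared little deviation from their group means (correlations 0.0762, 0.0397 and -0.115), which cannot show whether samples were paired. With a replicate block 6 enzymes were called higher and 26 lower. With no filter Gpt2 (adjusted p = 0.062) and Cth (0.065) lost their calls. Read depth is unknown, and 3 libraries a group cannot give an exact permutation p under 0.1.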

Other observations

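Amino acid carriers were called in both directions, and those named here were chosen after their values were seen. Of 23 tested, 11 (47.8%) were called higher, against 74.5% of all genes tested, and 6 (26.1%) lower, against 10.7%, with a median log2 fold change of 0.18, against 0.77 over all genes. Under median-of-ratios scaling 10 (43.5%) were called higher, against 35.1% of all genes, and 13 (56.5%) lower, against 36.6%. Slc1a2, a glutamate carrier, averaged 2.56 ± 1.03 TPM in the labelled knockout and 45.0 ± 3.49 TPM in WT (SD, n = 3 each), with a log2 fold change of -3.73 ± 0.21 (SE, adjusted p = 1.1e-06). Slc38a4 and Slc38a3, neutral amino acid carriers of hepatocytes, were at -1.23 and -1.19 log2 units. Slc1a4, a carrier of alanine, serine and cysteine, had 31.1, 28.4 and 37.1 TPM in the labelled knockout, against 0.870, 0.590 and 0.600 TPM in WT, with a log2 fold change of 4.29 ± 0.13 (SE, adjusted p = 1.4e-08). Slc3a2, the heavy chain that several carriers share, averaged 286 ± 35.0 TPM in the labelled knockout and 27.1 ± 3.20 TPM in WT (SD, n = 3 each), with a log2 fold change of 3.35 ± 0.13 (SE, adjusted p = 3.6e-08). Slc7a11, the cystine carrier that pairs with it, had 13.4, 10.8 and 9.29 TPM in the labelled knockout, against 0, 0 and 0 TPM in WT, where it was listed at 0 in each library. Several of these carriers are also made by cells other than hepatocytes, whose markers were higher in the same libraries, and their part in these values was not tested.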
